A study of Homo sapiens with 6 samples.

Results

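PC-9 is an established human lung adenocarcinoma cell line whose growth depends on an activating deletion in EGFR, the gene of the epidermal growth factor receptor. RNA was sequenced from untreated PC-9 cells grown in serum-containing medium and carrying shScr, a scrambled control shRNA, or an shRNA directed at RBM10, either shRBM10#1 or shRBM10#2. Each of the 3 conditions had 2 libraries, which gives 6. The graded response described here is the set of genes that followed the remaining level of RBM10. The conditions were scored 0 (shScr), 1 (shRBM10#1) and 2 (shRBM10#2) by falling RBM10, and a gene was taken when its 3 conditions lay in that order with no overlap of libraries. Of 14217 genes that passed the filter on low counts, out of 26334 gene symbols in the tables, 1348 (9.48%) met this rule, 720 rising and 628 falling as RBM10 fell. The conditions also differed in the shRNA itself, so the level of RBM10 and the identity of the hairpin cannot be told apart in this design.

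RBM10 is an RNA-binding protein of the spliceosome that promotes the skipping of many cassette exons, and RBM5 and RBM6 are its closest relatives. It is recurrently mutated in lung adenocarcinoma, mostly with loss of function, and one of its known splicing targets is Bcl-x, the product of BCL2L1, whose long form protects cells from apoptosis and whose short form favors it. An shRNA is processed in the cell into a small RNA that directs cleavage of the matching mRNA, and different shRNAs against the same gene usually leave different amounts of it.

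RBM10 itself stood at 83.2 and 86.2 CPM with shScr, 59.8 and 56.4 with shRBM10#1 and 27.2 and 26.9 with shRBM10#2 (CPM, counts scaled to a common library total after TMM normalization). Each condition was clear of the next, and the fitted slope was -0.82 ± 0.07 on the log2 scale per step of the score (SE). The step to shRBM10#1 was -0.54 and the step from there to shRBM10#2 was -1.11, so that 33.0% of the whole fall was reached with shRBM10#1. These values set the order of the conditions and were not tested. Of the paralogs, RBM5 was measured at 24.2 and 23.6 CPM with shScr, 26.9 and 31.8 with shRBM10#1 and 31 and 31.4 with shRBM10#2 and did not pass the trend test (slope 0.19 ± 0.05, edgeR adjusted p = 0.0801), while the slope of RBM6 was 0.01 ± 0.05 (edgeR adjusted p = 0.945). By the alternative tests, DESeq2 called 2 of the 3 genes RBM10, RBM5 and RBM6 and limma 1. The scores fixed the call of RBM10 in advance.

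The libraries held 31953727 to 37557510 expected counts each. The libraries were epithelial by their markers: the summed CPM of 8 epithelial genes lay between 22184 and 28092 in every library, and EGFR was between 197 and 280.1 CPM. Of 17 markers of other cell types, 4 were above 1 CPM in every library: CD68, CDH5 at 12.6 to 30 CPM, COL1A1 at 7.67 to 11.3 and PECAM1 at 3.19 to 4.89. The defining blood and fibroblast markers PTPRC, CD3E, DCN and LUM did not exceed 0.162 CPM in any library, CD14 did not exceed 0.705, and HBB was at 0 in all 6. CDH5, a cadherin of endothelial cells, was highest in the shRBM10#1 libraries, at 22.4 and 30 CPM. The 17 markers summed to 139.9 to 144 CPM with shScr, 129 to 136 with shRBM10#1 and 114 to 117 with shRBM10#2, most of it from CD68, a lysosomal protein of macrophages that many other cells also make, which fell from 109.9 and 114 CPM with shScr through 88.7 and 89.9 with shRBM10#1 to 82.5 and 85 with shRBM10#2 (slope -0.21 ± 0.04, edgeR adjusted p = 0.0409) and lost the call with the GC offset. The mean fragment was 231 nucleotides long in shScr replicate 2 and 265 to 281 in the other 5 libraries.

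As RBM10 fell, nearly as many genes were ordered downward as upward by CPM. The 720 rising genes were 5.06% of all genes tested and the 628 falling genes 4.42%. This balance differed with the unit and the scaling. By TPM, which is scaled for transcript length and library size, 295 genes were ordered upward and 654 downward. Thus 31.1% of ordered genes rose, beside 53.4% by CPM. TPM was used as deposited, without TMM. In a limma fit of log2(TPM + 1) the median fitted change over all genes was -0.038 log2, beside 0.005 in the edgeR fit. The part of the unit and of the scaling was not tested. The changes were small: the fitted difference from shScr to shRBM10#2 had a median of 0.35 log2 among the rising genes, with 53 over 1 log2, and a median of -0.37 among the falling genes, with 21 beyond -1. In bulk RNA, a change in every cell and a change in the share of cells that make a transcript cannot be told apart. Much of the order was narrow. When the gap between neighboring conditions had to be at least 0.1 log2, 133 rising and 126 falling genes were left. The edge of the rule is shown by genes with a mean of at least 10 CPM. Just inside it for rising genes was HMGB3, a high-mobility-group chromatin protein, at 229.767 and 233.683 CPM with shScr, 246.432 and 249.948 with shRBM10#1 and 253.523 and 249.965 with shRBM10#2. Just outside was TOR3A, an ATPase of the endoplasmic reticulum, at 34.835 and 34.937 CPM with shScr, 35.387 and 34.935 with shRBM10#1 and 38.937 and 38.737 with shRBM10#2, where 1 library of shRBM10#1 reached into shScr by less than 0.01 CPM. Among the falling genes GTPBP1, a GTP-binding protein, was just inside at 89.320 and 90.563 CPM with shScr, 78.958 and 71.472 with shRBM10#1 and 70.443 and 71.471 with shRBM10#2. ZNF777, a zinc finger protein, was just outside at 33.2946 and 30.0762 CPM with shScr, 29.0579 and 30.0763 with shRBM10#1 and 23.6694 and 24.4848 with shRBM10#2.

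The 3 conditions can be ordered without overlap in 6 ways. By CPM over all 6 libraries, the 2 orders that follow RBM10 were not the most frequent. The order with most genes by CPM, 848, placed shRBM10#2 below shScr and shRBM10#1 above it. The reverse of that order held 612 genes, and the orders in which shRBM10#1 was the most distant from shScr held 503 (both shRNAs higher) and 533 (both lower). After an offset for transcript GC content, described below, the 6 orders lay closer together, between 457 and 614 genes, with 614 (4.32%) in the rising and 587 (4.13%) in the falling order. With a gap of at least 0.1 log2, the orders that follow RBM10 held the fewest genes, 133 rising and 126 falling. The other orders then held between 137 and 188 genes. By TPM the falling order was the most frequent, with 654 genes. By CPM without shRBM10#1 replicate 1, and likewise without shRBM10#1 replicate 2, the rising order was the most frequent.

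**Figure D1:**
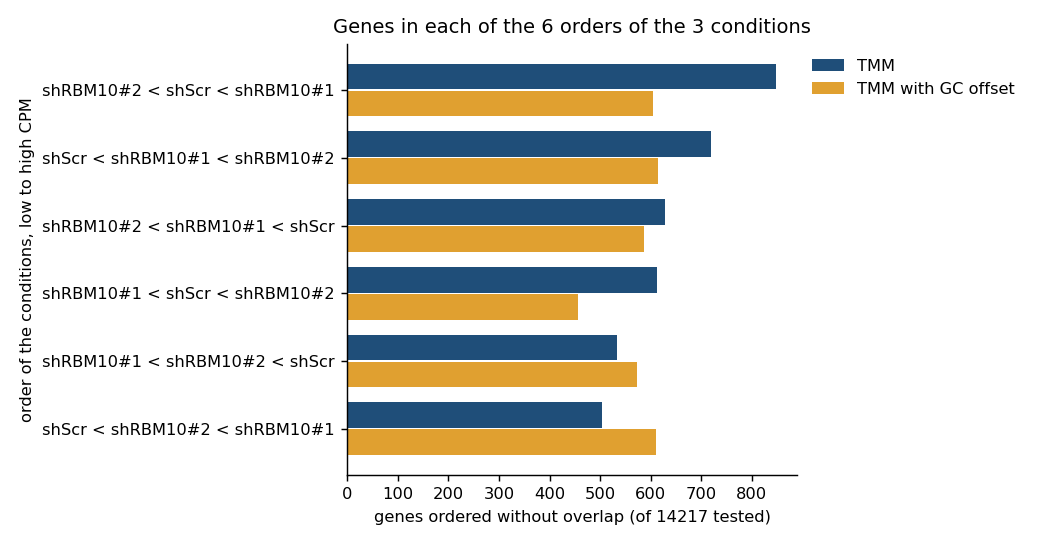
Number of genes (horizontal axis, of 14217 tested) whose 3 conditions were ordered without overlap of the 2 libraries each, for the 6 possible orders from low to high CPM (vertical axis). Dark bars are TMM-scaled values and light bars the same with an offset for GC content. The orders that follow RBM10 hold 720 and 628 genes and the order with shRBM10#1 highest and shRBM10#2 lowest holds 848; with the offset, these become 614, 587 and 605.

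The linear trend over the 6 libraries passed the test in 471 genes (3.31%), 222 rising (1.56% of genes tested) and 249 falling (1.75%), by edgeR's quasi-likelihood test at a Benjamini-Hochberg adjusted p under 0.05. Of these, 23 rising (0.162%) and 17 falling genes (0.12%) changed by more than 1 log2 over the range, and 5 genes (0.0352%) had an adjusted p under 0.01, while 3410 (24%) had an unadjusted p under 0.05. The 5 were RBM10, LCP1, HNRNPUL2-BSCL2, ALB and COMMD3-BMI1. RBM10 set the scores, and ALB and COMMD3-BMI1 passed the filter on low counts through shRBM10#2 alone. Of the ordered genes, 179 of 720 rising and 201 of 628 falling also passed the trend test, and since order and trend were read from the same values, neither supports the other. The count of calls was lower whichever 1 library of the end conditions was left out. The residual spread of this fit holds both the differences between replicates and the distance of shRBM10#1 from the straight line. Without shScr replicate 1 or 2 the count of trend genes was 4 or 5, and without shRBM10#2 replicate 1 or 2 it was also 4 or 5, whereas without shRBM10#1 replicate 1 it was 647 and without shRBM10#1 replicate 2 it was 1215. Of the 64 trend genes that met the rule for named genes, the read-through symbol HNRNPUL2-BSCL2 was the one called in every fit that was run, apart from RBM10, whose call the scores fixed in advance, and none of the 64 reversed its direction in any of them.

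**Figure D2:**
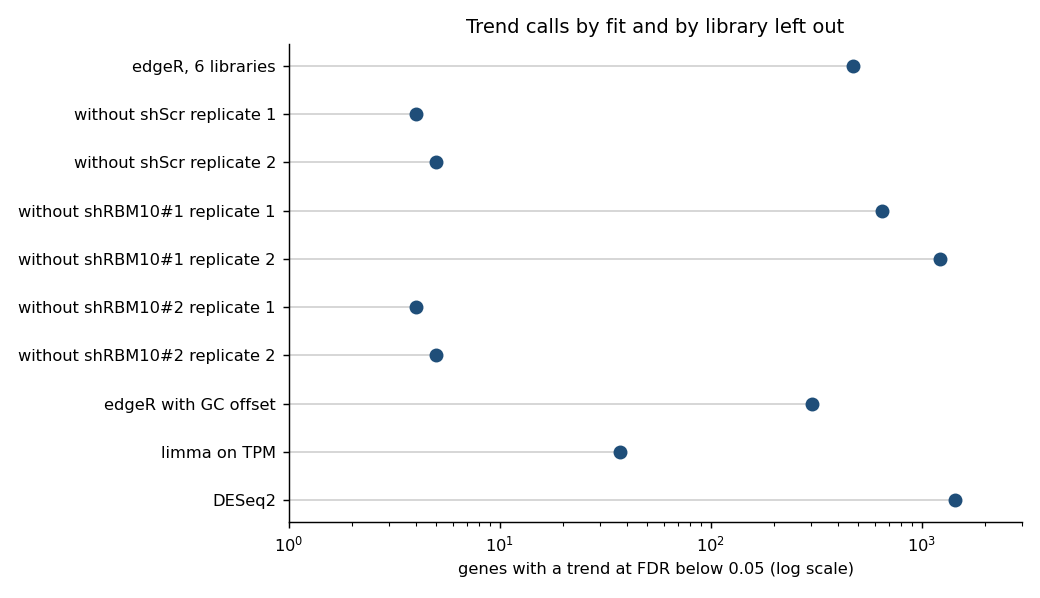
Number of genes with a trend at an adjusted p under 0.05 (horizontal axis, log scale) for the edgeR fit over 6 libraries, for the fits without each library in turn, and for edgeR with a GC offset, limma on TPM and DESeq2 (vertical axis). The count is 471 over 6 libraries, 4 or 5 without any 1 library of shScr or shRBM10#2, 37 with limma and 1440 with DESeq2.

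The whole range can be divided into 2 steps, which share the shRBM10#1 libraries. In edgeR the step to shRBM10#1 was called in 1996 of all genes tested (14%) and the step from shRBM10#1 to shRBM10#2 in 3628 (25.5%).

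Genes that were highest with shRBM10#2 were poor in GC and genes that were lowest with it were rich, whether or not their order followed RBM10. The transcripts of ordered rising genes had a median GC content of 43.2%, those of ordered falling genes 55.8% and those of all genes tested 50.02%. In the 612 genes with shRBM10#1 below shScr and shRBM10#2 above it the median was 42.6%, and in the 848 genes of the reverse order it was 59.4%, so the tilt was at least as large in the orders that do not follow RBM10. Where shRBM10#1 was the most distant from shScr the medians were 52.8% (both shRNAs higher) and 47.6% (both lower). Among transcripts with under 40% GC, 11.4% were ordered rising and 0.698% falling, and among those with 60% GC or more, 1.1% were rising and 6.97% falling. The tilt lay in the step to shRBM10#2: from the lowest to the highest GC class the median of that step went from 0.18 to -0.21 log2, while the median of the step to shRBM10#1 went from -0.01 to 0.07. By library, the median deviation of the lowest GC class minus that of the highest was 0.24 in both shRBM10#2 libraries, -0.18 and -0.15 with shRBM10#1, and -0.16 and 0.00 with shScr. With the GC offset, 413 of the 720 rising and 342 of the 628 falling genes were still in order, and the trend was called in 122 rising and 180 falling genes (2.12% in all), 91 and 142 of them shared with the fit without it. The part of library preparation in this tilt was not tested.

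**Figure D3:**
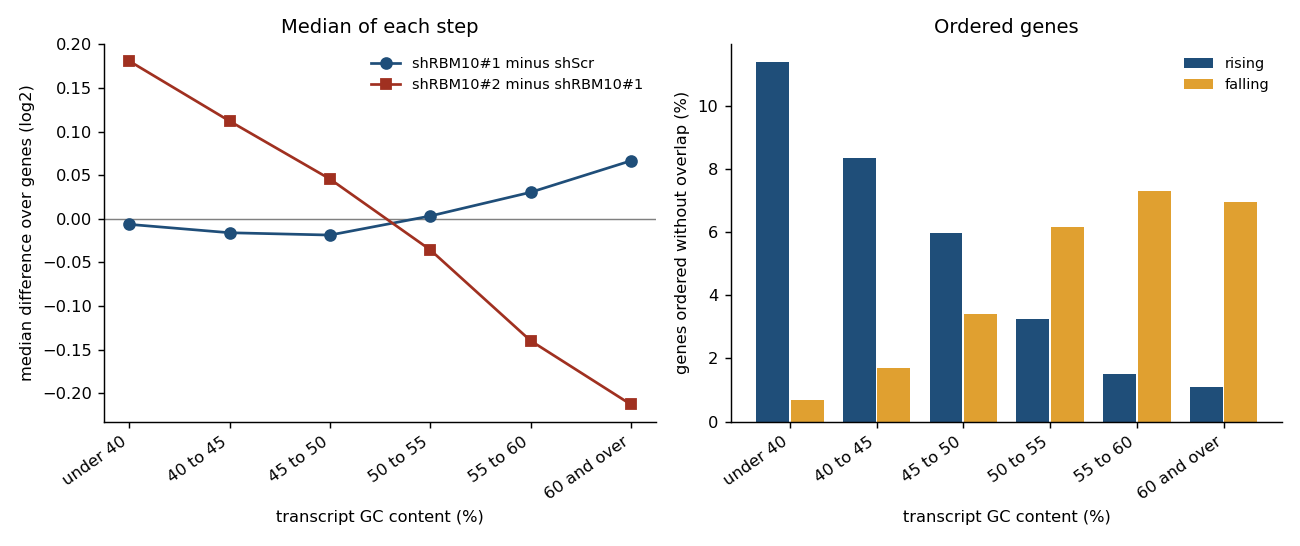
Left, median log2 difference over genes (vertical axis) for the step from shScr to shRBM10#1 (circles) and from shRBM10#1 to shRBM10#2 (squares) in 6 classes of transcript GC content (horizontal axis, %). Right, share of genes in each class (vertical axis, %) that were ordered rising or falling without overlap; the rising share drops from 11.4% to 1.1% and the falling share is 0.698% in the lowest class and 6.97% in the highest.

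The largest fitted rises among ordered trend genes with a mean of at least 10 CPM included both TGFBR2 and TGFBR3. TGFBR2, the signaling type II receptor for TGF-β, rose from 45.5 and 51.1 CPM with shScr through 58.1 and 63.6 with shRBM10#1 to 81.2 and 77.2 with shRBM10#2 (slope 0.36 ± 0.05, edgeR adjusted p = 0.0176). Both libraries of each condition lay above both of the condition before, and the steps were nearly equal, 0.33 to shRBM10#1 and 0.38 from there to shRBM10#2 on the log2 scale. TGFBR3, also called betaglycan, is the co-receptor that presents TGF-β to TGFBR2, and it rose from 12 and 12.8 CPM with shScr through 16.8 and 14.9 with shRBM10#1 to 22.7 and 21.2 with shRBM10#2 (slope 0.41 ± 0.05, edgeR adjusted p = 0.0193). DKK1, a secreted inhibitor of Wnt receptors, was at 13.8 and 12.7 CPM with shScr, 16 and 17.7 with shRBM10#1 and 22.5 and 21.6 with shRBM10#2 (slope 0.37 ± 0.05, edgeR adjusted p = 0.0251). All 3 genes rose without overlap of any conditions, and each kept its trend call with the GC offset. TFPI, the inhibitor of tissue factor in coagulation, rose from 57 and 67.4 CPM with shScr through 74.8 and 75.2 with shRBM10#1 to 103 and 104 with shRBM10#2 (slope 0.37 ± 0.05, edgeR adjusted p = 0.0225). SERPIND1, the thrombin inhibitor heparin cofactor II, stood at 7.3 and 7.2 CPM with shScr, 11.9 and 12.9 with shRBM10#1 and 13.8 and 15.6 with shRBM10#2 (slope 0.50 ± 0.08, edgeR adjusted p = 0.031), and more of its rise came with shRBM10#1 than with shRBM10#2, 0.77 to shRBM10#1 and 0.25 from there to shRBM10#2. Both coagulation inhibitors were ordered in all 6 libraries.

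Among the other leading rising genes, BHLHE41 encodes a transcriptional repressor that acts in the circadian clock. It rose from 38.2 and 42.3 CPM with shScr through 62.3 and 60.3 with shRBM10#1 to 73.5 and 75.3 with shRBM10#2 (slope 0.44 ± 0.05, edgeR adjusted p = 0.0172), and every shRBM10#1 library lay above both shScr libraries and below both shRBM10#2 libraries. CHCHD10, a small protein of the mitochondrial intermembrane space, was at 60.5 and 47.1 CPM with shScr, 68.6 and 70.6 with shRBM10#1 and 92 and 96.1 with shRBM10#2 (slope 0.40 ± 0.06, edgeR adjusted p = 0.0253), with shScr replicate 2 the lowest of the 6. CRIP1, a LIM domain protein, was at 141 and 119 CPM with shScr, 163 and 208 with shRBM10#1 and 214 and 220.1 with shRBM10#2 (slope 0.37 ± 0.07, edgeR adjusted p = 0.0347), and its shRBM10#1 libraries were far apart, the higher of them close to the shRBM10#2 level. The same held for SLC1A1, a glutamate transporter, at 12 and 12.9 CPM with shScr, 13.1 and 18.9 with shRBM10#1 and 21.4 and 20.5 with shRBM10#2 (slope 0.37 ± 0.08, edgeR adjusted p = 0.0441). ALG6, a glucosyltransferase of N-glycan assembly, and MMD, a membrane protein first found in maturing macrophages, had slopes of 0.38 ± 0.07 and 0.38 ± 0.06 (edgeR adjusted p = 0.0338 and 0.0327). SLC1A1, ALG6 and MMD lost the trend call with the GC offset, while BHLHE41, CHCHD10 and CRIP1 kept it.

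**Figure D4:**
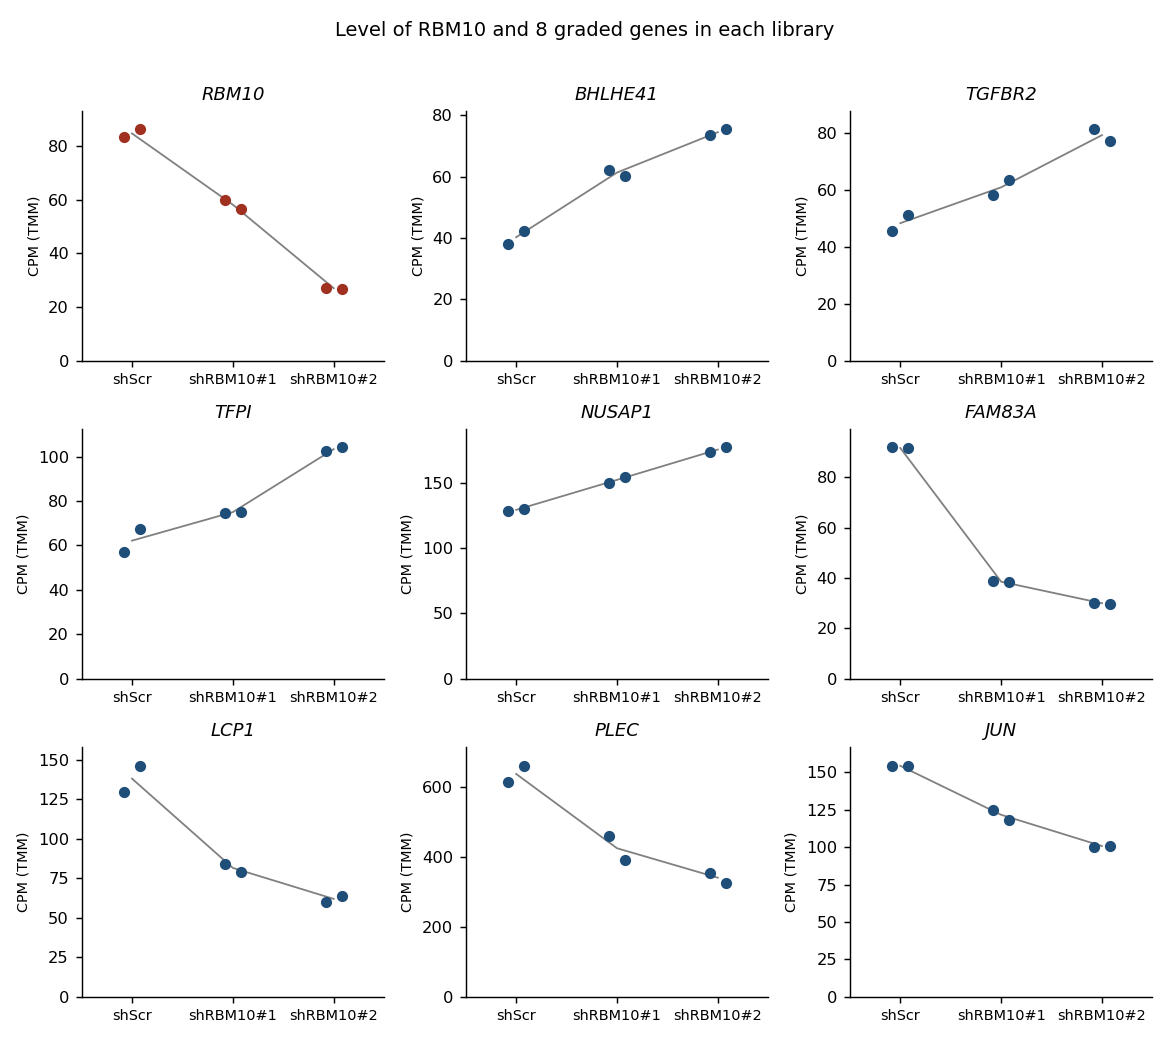
TMM-scaled CPM (vertical axes, starting at 0) of RBM10 and 8 graded genes in the 2 libraries of each condition (horizontal axes). Points are libraries and the line joins the condition means. BHLHE41, TGFBR2, TFPI and NUSAP1 rise and FAM83A, LCP1, PLEC and JUN fall with no overlap of conditions; most of the fall of FAM83A lies between shScr and shRBM10#1.

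Among ordered trend genes with a mean of at least 10 CPM, FAM83A had the largest fitted fall after RBM10. This gene encodes an adaptor known from signaling downstream of EGFR, and it fell from 91.8 and 91.5 CPM with shScr through 38.7 and 38.4 with shRBM10#1 to 30.3 and 29.7 with shRBM10#2 (slope -0.81 ± 0.09, edgeR adjusted p = 0.0172). The libraries of each condition were nearly identical, and the fall was uneven: the steps were -1.25 to shRBM10#1 and -0.36 from there to shRBM10#2, and shRBM10#1 lay below the midpoint of the other conditions by 0.44 log2 (edgeR adjusted p = 0.000414). All 3 annotated isoforms were lower in every knockdown library than in either shScr library. The most abundant of them, NM_032899, had TPM values of 23.03 and 25.45 with shScr, 9.79 and 9.05 with shRBM10#1 and 7.64 and 7.59 with shRBM10#2. LCP1, the actin-bundling protein L-plastin, fell from 129.7 and 146 CPM with shScr through 84.3 and 78.7 with shRBM10#1 to 59.8 and 64 with shRBM10#2 (slope -0.58 ± 0.06, edgeR adjusted p = 0.00766), and no libraries of different conditions overlapped. PLEC encodes plectin, which links intermediate filaments to hemidesmosomes and the cytoskeleton, and was among the most highly counted falling genes, from 612 and 659.8 CPM with shScr through 458 and 389.9 with shRBM10#1 to 354 and 326 with shRBM10#2 (slope -0.45 ± 0.05, edgeR adjusted p = 0.0172). LCP1 and FAM83A kept the trend call and the order with the GC offset. PLEC, whose transcripts have 66.8% GC, kept the call (edgeR adjusted p = 0.0447) but was no longer ordered without overlap.

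By the same rule, PTPRH, MAPK8IP3, TNXB, CFB, FBP1 and CARD6 were among the 12 largest falls. PTPRH, a receptor-type tyrosine phosphatase, fell from 15.4 and 14.9 CPM with shScr through 10.3 and 12.1 with shRBM10#1 to 7.92 and 8.27 with shRBM10#2 (slope -0.45 ± 0.06, edgeR adjusted p = 0.0207), in nearly equal steps. MAPK8IP3, a scaffold of the JNK pathway that also links cargo to kinesin, was at 80.2 and 73.7 CPM with shScr, 55 and 48 with shRBM10#1 and 41.3 and 46.2 with shRBM10#2 (slope -0.41 ± 0.06, edgeR adjusted p = 0.0253). TNXB, an extracellular matrix glycoprotein of the tenascin family, fell from 17.9 and 17 CPM with shScr through 12 and 12.8 with shRBM10#1 to 9.69 and 10.3 with shRBM10#2 (slope -0.40 ± 0.05, edgeR adjusted p = 0.0234). All 3 were ordered without overlap, and MAPK8IP3 lost its trend call with the GC offset. CFB, complement factor B, fell from 27.5 and 28 CPM with shScr through 17.5 and 20.1 with shRBM10#1 to 15.2 and 14.9 with shRBM10#2 (slope -0.44 ± 0.05, edgeR adjusted p = 0.0172). FBP1, a phosphatase of gluconeogenesis, fell from 14.2 and 13.1 CPM with shScr through 8.85 and 8.9 with shRBM10#1 to 8.02 and 7.33 with shRBM10#2 (slope -0.42 ± 0.07, edgeR adjusted p = 0.0318). CARD6, a caspase recruitment domain protein, was at 18 and 19.4 CPM with shScr, 11.1 and 12.4 with shRBM10#1 and 10.5 and 11 with shRBM10#2 (slope -0.40 ± 0.07, edgeR adjusted p = 0.0339). In FBP1 and CARD6 the shRBM10#1 and shRBM10#2 libraries differed little: the step between them was -0.21 and -0.13 log2 and did not pass its test (edgeR adjusted p = 0.189 and 0.372).

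Some of the leading genes share reads with others. HNRNPUL2-BSCL2, a read-through transcript of neighboring genes, rose from 39.9 and 36.1 CPM with shScr through 52.5 and 57.5 with shRBM10#1 to 78.1 and 79.7 with shRBM10#2 (slope 0.53 ± 0.04, edgeR adjusted p = 0.0035), in nearly equal steps. Its partners showed no such rise: the slope was -0.14 ± 0.04 for HNRNPUL2 and -0.01 ± 0.05 for BSCL2, and the 3 symbols summed to between 501 and 543 CPM in every library. NOMO3 was at 40.8 and 38.9 CPM with shScr, 34.8 and 28.7 with shRBM10#1 and 18.8 and 22.7 with shRBM10#2 (slope -0.47 ± 0.07, edgeR adjusted p = 0.0253), and the near-identical copies NOMO1 and NOMO2 had slopes of -0.23 ± 0.05 and -0.14 ± 0.05 (edgeR adjusted p = 0.0444 and 0.108). RPL21, a ribosomal protein gene with many processed copies in the genome, was at 289.7 and 236 CPM with shScr, 189.9 and 233 with shRBM10#1 and 132 and 169 with shRBM10#2 (slope -0.40 ± 0.08, edgeR adjusted p = 0.0361), with replicates far apart in every condition. How RSEM divided the shared reads can move each of these values.

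COMMD3-BMI1 and ALB were near 0 without shRBM10#2. Both passed the filter on low counts through shRBM10#2 alone, so their trend calls follow from the filter and their values are given as a description. The read-through symbol COMMD3-BMI1 was at 0 counts in both shScr and both shRBM10#1 libraries and at 247 and 248 with shRBM10#2, at least 68.4-fold higher (against a floor of 3 counts per library). With 0 counts in both lower conditions it does not count among the ordered genes. Its partners COMMD3 and BMI1 had slopes of 0.13 ± 0.08 and 0.03 ± 0.05, and neither passed the trend test. ALB, which encodes serum albumin and is a marker of hepatocytes, had 0 and 0 counts with shScr, 2 and 1 with shRBM10#1 and 77 and 94 with shRBM10#2, at least 24.5-fold higher than shScr by the same floor. Both genes rose almost wholly at the step to shRBM10#2. Of 20 liver-type genes, chosen after ALB had been seen, 19 were above 0 in each shRBM10#2 library, beside 7 in each shScr library and 9 and 10 with shRBM10#1. Without ALB they summed to 144 and 141 counts with shRBM10#2 and to between 22 and 51 in the other 4 libraries. The part of RNA from another source in this was not tested.

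Genes of the basement membrane and its receptors that passed the trend test all fell. Of 33 integrin, laminin and collagen genes tested, 6 passed the trend test (18.2%, beside 3.31% of all genes) and 13 by DESeq2 (39.4%, beside 10.1%), the median fitted change was -0.31 log2 (0.01 over all genes), and 5 had a positive slope. LAMB3 encodes a chain of the laminin that hemidesmosomes bind. It fell from 336 and 323 CPM with shScr through 301 and 292 with shRBM10#1 to 231 and 232 with shRBM10#2 (slope -0.25 ± 0.04, edgeR adjusted p = 0.0318). The fall lay in its most abundant isoform, NM_000228. Isoform NM_001017402 did not fall, at TPM values of 11.72 and 14.02 with shScr and 13 and 16.1 with shRBM10#2. ITGB4, the integrin subunit that binds this laminin and is anchored by plectin, was at 302 and 304 CPM with shScr, 231 and 217 with shRBM10#1 and 206 and 199 with shRBM10#2 (slope -0.29 ± 0.05, edgeR adjusted p = 0.0285). LAMB3 and ITGB4 were ordered without overlap, with most of the fall of LAMB3 in the step to shRBM10#2 and most of that of ITGB4 in the step to shRBM10#1. COL17A1, the hemidesmosomal collagen, was low at 3.17 and 2.73 CPM with shScr, 1.05 and 0.489 with shRBM10#1 and 0.35 and 0.731 with shRBM10#2 (slope -1.28 ± 0.24, edgeR adjusted p = 0.0347), and its shRBM10#1 and shRBM10#2 libraries overlapped. LAMA5, a laminin chain of most epithelial basement membranes, and HSPG2, the proteoglycan perlecan, passed the test with slopes of -0.24 ± 0.05 and -0.54 ± 0.10 (edgeR adjusted p = 0.0449 and 0.0354), but were not ordered, since shScr and shRBM10#1 overlapped. With the GC offset, ITGB4 and LAMA5 lost the call, 4 of the 6 calls were kept and the median was -0.25.

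The lists closest to the study's question were those of apoptosis and EGFR signaling. Of 30 Bcl-2 family and caspase genes, BCL2L1 alone passed edgeR's trend test, a share of 3.33% beside 3.31% of all genes tested. DESeq2 called 5 of the 30 (16.7%, beside 10.1% of all genes) and limma on TPM 0. In the same list 3 genes were ordered upward and 4 downward, 23.3% in all beside 9.48% of all genes. BCL2L1 was at 235 and 229 CPM with shScr, 173 and 175 with shRBM10#1 and 168 and 168 with shRBM10#2 (slope -0.23 ± 0.05, edgeR adjusted p = 0.0438), and nearly all of the difference lay between shScr and shRBM10#1, -0.41 to shRBM10#1 and -0.05 from there to shRBM10#2. For BCL2L1, shRBM10#1 departed from the midpoint of the other conditions by -0.18 log2 (edgeR adjusted p = 0.0309). With the GC offset the edgeR adjusted p of its trend was 0.0986. By that offset BCL2L1 no longer followed RBM10, since shRBM10#1 was lowest and shRBM10#2 lay between it and shScr. These are counts of the whole gene and do not separate the long and short forms. Without passing the trend test, APAF1 and CASP8, which act in caspase activation, were ordered upward with fitted changes of 0.28 and 0.37 log2, and the anti-apoptotic MCL1 and the pro-apoptotic BOK and BAD were ordered downward with -0.28, -0.27 and -0.21. CASP9, the initiator caspase whose splicing has been tied to RBM10, was at 6.1 and 5.44 CPM with shScr, 4.67 and 5.54 with shRBM10#1 and 5.55 and 5.27 with shRBM10#2 (slope -0.05 ± 0.08, edgeR adjusted p = 0.771), and its conditions overlapped. None of the 14 genes of the EGFR family and its ligands was ordered or called by edgeR's trend test, 3 had an unadjusted p under 0.05, and DESeq2 called 1 and limma on TPM 0.

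Among 26 genes that report ERK activity, the 2 that passed the trend test (7.69%, beside 3.31% of all genes) fell. JUN, a subunit of the transcription factor AP-1, fell from 155 and 154 CPM with shScr through 125 and 118 with shRBM10#1 to 100.5 and 101 with shRBM10#2 (slope -0.31 ± 0.04, edgeR adjusted p = 0.0172), with no overlap and in nearly equal steps. EPHA2, an ephrin receptor induced by ERK signaling, fell from 155 and 135 CPM with shScr through 129 and 114 with shRBM10#1 to 89.5 and 93.8 with shRBM10#2 (slope -0.33 ± 0.05, edgeR adjusted p = 0.0284), also without overlap. THBS1, a matrix glycoprotein from the list of 24 YAP and TEAD targets, was the single call there (4.17%), at 125 and 136 CPM with shScr, 116 and 80.4 with shRBM10#1 and 81.7 and 76.7 with shRBM10#2 (slope -0.36 ± 0.07, edgeR adjusted p = 0.0422), and its knockdown conditions overlapped. JUN, EPHA2 and THBS1 kept the trend call with the GC offset, and the median fitted change of the YAP and TEAD list was -0.21 log2, with 3 of 24 slopes above 0.

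Genes of the cytosolic ribosomal protein and oxidative phosphorylation lists that passed the trend test rose as RBM10 fell. RPL21, which fell, was not in the list of ribosomal protein genes. Of 54 cytosolic ribosomal protein genes, 6 rose (11.1%, beside 3.31% of all genes called), DESeq2 called 18 (33.3%, beside 10.1%), and 39 slopes were above 0, with a median fitted change of 0.18 log2. Examples were RPL36 at 266 and 227 CPM with shScr, 271 and 299 with shRBM10#1 and 358 and 369 with shRBM10#2 (slope 0.28 ± 0.05, edgeR adjusted p = 0.0327) and RPS24 at 497 and 444 CPM with shScr, 491 and 531 with shRBM10#1 and 667 and 709 with shRBM10#2 (slope 0.27 ± 0.05, edgeR adjusted p = 0.0346). RPL36 was ordered, and in RPS24 the shScr and shRBM10#1 libraries overlapped. With the GC offset RPL36 and RPS24 were the 2 genes of the list that were called, and with an offset for transcript length the median of the list was 0.07. Of 47 oxidative phosphorylation genes, 3 rose (6.38%; 19 called by DESeq2, 40.4%) and 9 were ordered upward beside 1 downward, with a median of 0.20 log2 (0.10 with the length offset). The ordered share was 21.3%, beside 9.48% of all genes. COX5B, a subunit of cytochrome c oxidase, was at 184 and 154 CPM with shScr, 187 and 208 with shRBM10#1 and 230.0 and 244 with shRBM10#2 (slope 0.25 ± 0.05, edgeR adjusted p = 0.0422), and ATP5F1, a subunit of ATP synthase, at 191 and 192 CPM with shScr, 208 and 213 with shRBM10#1 and 248 and 257 with shRBM10#2 (slope 0.20 ± 0.04, edgeR adjusted p = 0.0346). Both were ordered and kept the call with the GC offset. COX6C, the other gene called, was at 118 and 104 CPM with shScr, 107 and 130.4 with shRBM10#1 and 173 and 185 with shRBM10#2 (slope 0.35 ± 0.07, edgeR adjusted p = 0.0422), its lower conditions overlapped, and it lost the call with the GC offset. The mean fragment length of shScr replicate 2 was the shortest, and in RPL36, RPS24, COX5B and COX6C that library was the lowest of the 6; its part was not tested.

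DNA replication and mitosis genes that passed the trend test all rose. Of 30 DNA replication genes 2 passed (6.67%, beside 3.31% of all genes; 7 by DESeq2), and 8 were ordered upward (26.7%, beside 9.48% of all genes ordered either way), with a median fitted change of 0.17 log2. TYMS, thymidylate synthase, rose from 81.7 and 79.7 CPM with shScr through 88.9 and 92.5 with shRBM10#1 to 121 and 121 with shRBM10#2 (slope 0.29 ± 0.04, edgeR adjusted p = 0.0253), and MCM4, CDC45, GINS2, FEN1, RFC4 and RFC5, also ordered, had fitted changes between 0.24 and 0.39 without passing the test. CCNE2, cyclin E2, was at 16.6 and 20.4 CPM with shScr, 18.4 and 20.8 with shRBM10#1 and 31.3 and 30.04 with shRBM10#2 (slope 0.37 ± 0.08, edgeR adjusted p = 0.044), with shScr and shRBM10#1 overlapping. Of 25 mitosis genes 3 rose (12%). NUSAP1, a spindle protein, rose from 129 and 129.7 CPM with shScr through 149.8 and 154 with shRBM10#1 to 174 and 177 with shRBM10#2 (slope 0.22 ± 0.04, edgeR adjusted p = 0.0318). CDK1, the mitotic kinase, was at 219 and 216 CPM with shScr, 227 and 237 with shRBM10#1 and 332 and 329 with shRBM10#2 (slope 0.30 ± 0.05, edgeR adjusted p = 0.0327). UBE2C, the ubiquitin-conjugating enzyme of the anaphase-promoting complex, was at 239 and 201 CPM with shScr, 249 and 244 with shRBM10#1 and 305 and 313 with shRBM10#2 (slope 0.25 ± 0.05, edgeR adjusted p = 0.0374). All 3 were ordered, and most of the rise of CDK1 came with shRBM10#2. CDK1 and CCNE2, with 35.6% and 35.4% GC, lost the call with the GC offset, which also turned the median of the mitosis list from 0.07 to -0.01. Of 12 replication-dependent histone genes (8.33% called), HIST3H2A fell from 11.1 and 8.63 CPM with shScr through 5.56 and 7.44 with shRBM10#1 to 4.36 and 4.46 with shRBM10#2 (slope -0.58 ± 0.09, edgeR adjusted p = 0.0301), and 2 slopes of 12 were above 0. SESN1, the 1 call among 24 p53 targets (4.17%), rose from 7.76 and 7.69 CPM with shScr through 9.3 and 11.1 with shRBM10#1 to 11.4 and 13.1 with shRBM10#2 (slope 0.33 ± 0.07, edgeR adjusted p = 0.0438). With the GC offset it was no longer ordered or called (edgeR adjusted p = 0.0753), which left 0 calls in that list by that fit.

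Metabolic lists held calls in both directions. Of 24 cholesterol synthesis genes, 4 fell and 1 rose (20.8%, beside 3.31% of all genes called). The enzymes LSS, MVD and NSDHL fell with slopes of -0.32 ± 0.06, -0.28 ± 0.06 and -0.23 ± 0.04 (edgeR adjusted p = 0.0339, 0.0397 and 0.0327), and STARD4, a sterol carrier, rose (slope 0.32 ± 0.06, edgeR adjusted p = 0.0372). Of these, NSDHL alone kept the call with the GC offset. It fell from 77.7 and 81.9 CPM with shScr through 64.9 and 64.3 with shRBM10#1 to 58.1 and 57.8 with shRBM10#2, clear of overlap. Of 36 glycolysis and hypoxia genes the 3 that passed the test (8.33%) fell. The glucose transporter SLC2A1 was at 288 and 278 CPM with shScr, 231 and 232 with shRBM10#1 and 209.8 and 212 with shRBM10#2 (slope -0.21 ± 0.04, edgeR adjusted p = 0.0331) and the angiogenic factor VEGFA at 157 and 136 CPM with shScr, 122 and 126 with shRBM10#1 and 112 and 109 with shRBM10#2 (slope -0.20 ± 0.04, edgeR adjusted p = 0.0461), both ordered, while EGLN3, an oxygen-sensing hydroxylase, had overlapping knockdown libraries (slope -0.31 ± 0.06, edgeR adjusted p = 0.0365). EGLN3 kept the call with the GC offset, and SLC2A1 and VEGFA lost it (edgeR adjusted p = 0.0504 and 0.0513). Of 26 NRF2 targets the 4 that passed the test (15.4%) rose. UGDH, which makes UDP-glucuronate, was at 551 and 586 CPM with shScr, 633 and 609.5 with shRBM10#1 and 711 and 736 with shRBM10#2 (slope 0.17 ± 0.04, edgeR adjusted p = 0.0451). AKR1C1, AKR1C2 and AKR1C3, ketosteroid reductases with near-identical sequences, had slopes of 0.21 ± 0.04, 0.31 ± 0.06 and 0.20 ± 0.04 (edgeR adjusted p = 0.0327, 0.0347 and 0.0361), and they share reads, which RSEM divided among them. AKR1C2 kept the call with the GC offset, and UGDH, AKR1C1 and AKR1C3 lost it (edgeR adjusted p = 0.114, 0.0753 and 0.0884). AARS, alanyl-tRNA synthetase, was the single call among 32 amino acid and ER stress genes (3.13%) and fell (slope -0.42 ± 0.07, edgeR adjusted p = 0.0318), with both shScr libraries above the other 4.

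The shares of splicing and decay factors that passed edgeR's trend test lay around the 3.31% of all genes. DESeq2 called 4 of 24 hnRNP genes (16.7%) and 2 of 15 decay factors (13.3%), beside 10.1% of all genes, and limma on TPM 0 of either. Of 24 hnRNP genes (4.17% called), HNRNPL fell from 421 and 457 CPM with shScr through 401 and 387 with shRBM10#1 to 332 and 327 with shRBM10#2 (slope -0.21 ± 0.04, edgeR adjusted p = 0.0354), ordered in all 6 libraries and called again with the GC offset. Of 13 SR and TRA2 genes 0 passed edgeR's trend test (2 at an unadjusted p under 0.05, and 0 by DESeq2 or limma on TPM), and 1 of them (7.69%, beside 9.48% of all genes), SRSF7, was ordered downward with a fitted change of -0.11 log2. SMG6, the endonuclease of nonsense-mediated decay, was the 1 gene called of 15 decay factors (6.67%), at 58.6 and 65 CPM with shScr, 55.5 and 52.7 with shRBM10#1 and 47.6 and 44.8 with shRBM10#2 (slope -0.21 ± 0.04, edgeR adjusted p = 0.0422), and lost the call with the GC offset (edgeR adjusted p = 0.0604). In this list 2 genes were ordered downward and 0 upward (13.3%, beside 9.48% of all genes ordered either way). Genes with an exon in the study's list of exons that changed upon RBM10 KD in HEK293 cells, a human embryonic kidney line, were called at 2.70%, beside 3.31% of all genes: of 333 tested, 4 rose and 5 fell, and 17 were ordered upward and 19 downward, with a median change of -0.03 log2. The ordered share of this list was 10.8%, near the 9.48% of all genes. DESeq2 called 51 of these 333 genes (15.3%, beside 10.1% of all genes) and limma on TPM 1. In edgeR, 105 of the 333 had an unadjusted p under 0.05, beside 24% of all genes. The complement regulator CD46 rose from 365 and 362 CPM with shScr through 381 and 439 with shRBM10#1 to 476 and 467 with shRBM10#2 (slope 0.19 ± 0.04, edgeR adjusted p = 0.0494), and PRRC2B, a translation factor, fell from 326 and 354 CPM with shScr through 300.4 and 273 with shRBM10#1 to 216 and 221 with shRBM10#2 (slope -0.32 ± 0.04, edgeR adjusted p = 0.0234), and both were ordered. With the GC offset PRRC2B kept the call and CD46 lost it (edgeR adjusted p = 0.217). The interferon-stimulated (32 tested), NF-kB (16), epithelial (24), mesenchymal (14) and lung lineage lists (14) had 0 trend calls by edgeR's test and 0 by limma on TPM. In the same order, 3, 6, 8, 2 and 3 of their genes had an unadjusted p under 0.05, and DESeq2 called 0, 2, 3, 1 and 2.

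**Figure D5:**
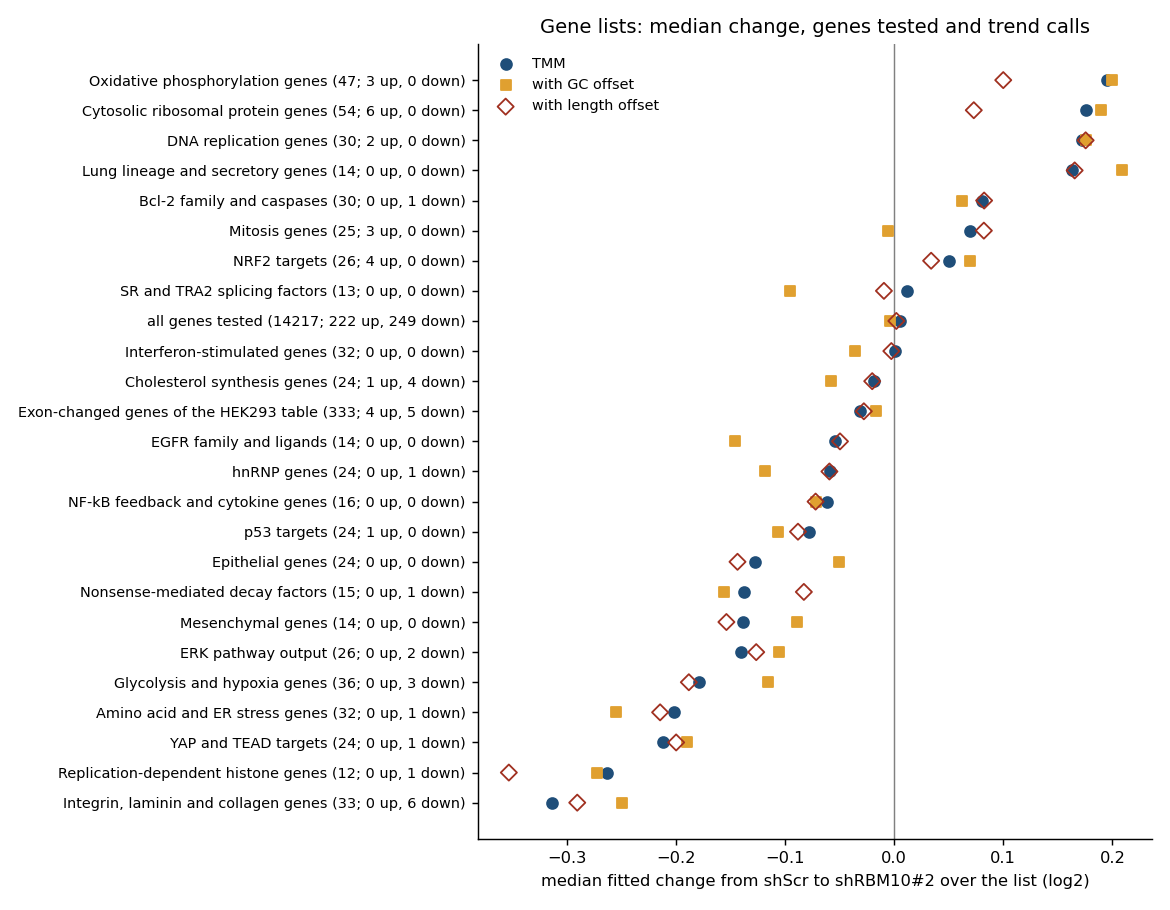
Median fitted change from shScr to shRBM10#2 (horizontal axis, log2) over the genes of each list with at least 10 genes tested (vertical axis; genes tested and trend calls in parentheses), with TMM scaling (filled circles), a GC offset (squares) and a length offset (open diamonds). Integrin, laminin and collagen genes have the lowest median, -0.31, and oxidative phosphorylation genes the highest, 0.20, which is 0.10 with the length offset.

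Many genes departed from a straight line. In a fit with 1 coefficient per condition, the test of shRBM10#1 against the midpoint of the others called 2565 genes (18%) in edgeR, 1502 with shRBM10#1 above the line (10.6%) and 1063 below it (7.48%). Among the ordered genes, by contrast, 3 rising and 15 falling genes departed from the line, a share that the ordering itself keeps low. RBM10 was among the 15. The line takes both steps as equal, and at shRBM10#1 RBM10 itself lay above it by 0.28 log2. A gene can therefore depart from the line and still follow the level of RBM10. The linear contrast of the same fit, which sets shRBM10#2 against shScr, called 3685 genes (25.9%), and shRBM10#1 lay between them in 62.3%, on the far side of shScr in 23.7% and beyond shRBM10#2 in 14%. IGFBP5, a secreted binding protein of insulin-like growth factors, had the smallest p above the line, at 72.3 and 78.3 CPM with shScr, 269.6 and 289 with shRBM10#1 and 110.3 and 110.2 with shRBM10#2. The gene was highest with shRBM10#1, and both shRBM10#2 libraries lay above shScr. MSN, which encodes moesin, a linker of membrane and actin, was at 236 and 232 CPM with shScr, 98.3 and 92.6 with shRBM10#1 and 138 and 137 with shRBM10#2, lowest with shRBM10#1. CEACAM5, an adhesion glycoprotein, was at 17.7 and 18.2 CPM with shScr, 6.11 and 6.65 with shRBM10#1 and 17 and 14.6 with shRBM10#2, and its shScr and shRBM10#2 libraries were close together while shRBM10#1 was far below. In these 3 genes the condition with the intermediate level of RBM10 had the most extreme value.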

How the data were processed

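Transcript abundance was measured by RNA-Seq in 6 libraries of PC-9 cells, 2 for each shRNA. The authors quantified 51398 RefSeq isoforms with RSEM and deposited for each isoform an expected count (fractional where reads are shared) and TPM, scaled for length and library size. The submitters' processing notes name STAR 2.4, RSEM 1.2.29, edgeR and hg19. The edgeR test and the strand protocol are not given in the sources used here. The labels name shScr as control and were followed, although the study's methods speak of the parental line. FPKM and isoform percentages were not used, and no coordinates are given.

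Expected counts were summed per gene symbol (26334) and rounded. Genes were filtered with filterByExpr by condition (14217 tested), scaled by TMM and tested by edgeR 4.0.16 in R 4.3.3 (glmQLFit and glmQLFTest, quasi-likelihood, two-sided) for a slope on the score 0, 1 and 2, with Benjamini-Hochberg adjustment over all genes tested. The same functions in a fit with 1 coefficient per condition gave the steps and the departure of shRBM10#1 from the midpoint. Order was read from TMM CPM. Depth was 31953727 to 37557510 expected counts per library, and the median difference between replicates was 0.07 to 0.13 log2. Libraries count as replicates on the labels alone, so p-values measure the spread between these samples, which may be technical. For the trend test, that spread also includes the distance of shRBM10#1 from the straight line.

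Named genes were RBM10, BCL2L1 and CASP9; the 12 largest rises and falls among ordered trend genes with a mean of at least 10 CPM; the 3 smallest trend p-values in each direction; at most 4 trend genes per list and direction; and the 3 smallest p-values for departure above and below the line. LAMA5, HSPG2, the ordered genes that missed the trend test, and the genes of the HEK293 list were named besides, after their values were seen. The members and lists were chosen with earlier results of these data known. Values of some genes that met these rules are not reported here. The HEK293 list is the study's and served only as a list of genes.

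Alternatives were DESeq2 1.42.0 and its size factors, limma 3.58.1 on log2(TPM + 1), other filters on counts (none, or at least 10 in every library), offsets for transcript length and GC content, a replicate block, a score from the measured RBM10 level, and each library left out. GC content came from GENCODE 29 transcripts matched by RefSeq identifier or else gene name (99.0% of genes tested had a value), and its offset from a loess fit with a span of 0.3. The code was tested on simulated counts. Figures were drawn with matplotlib 3.10.9 in Python 3.11.15.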

Additional observations from a re-analysis of the deposited data

Results flagged for a closer look

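In 76 of the 14217 genes tested, the shRNAs moved expression in opposite directions, each against shScr and against each other at an adjusted p under 0.05 in edgeR. Of these, 61 were higher with shRBM10#1 and lower with shRBM10#2, and 15 were the reverse. Neither order follows the level of RBM10.

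The departures with the smallest p were large. The distance of shRBM10#1 from the midpoint of shScr and shRBM10#2 was 1.62 log2 for IGFBP5, an insulin-like growth factor binding protein, 1.82 for SUSD2, a membrane protein with a sushi domain, and 1.02 for OLFML3, a secreted matrix protein (edgeR adjusted p = 6.91e-09, 2.57e-06 and 2.57e-06). SUSD2 was at 11.3 and 11.8 CPM with shScr, 46.1 and 63.2 with shRBM10#1 and 22.8 and 19.1 with shRBM10#2. Below the line the distance was -0.908 for MSN (moesin), -0.863 for ATP5C1, a subunit of ATP synthase, and -1.40 for CEACAM5 (edgeR adjusted p = 2.57e-06, 2.71e-06 and 1e-05). ATP5C1 was at 136 and 133 CPM with shScr, 83.2 and 82.9 with shRBM10#1 and 168 and 172 with shRBM10#2, so that shRBM10#2 lay above shScr and shRBM10#1 below it. With 2 libraries per condition no library was tested as standing apart.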

How the results depend on the processing

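The slope of RBM10 was -0.82 log2 per step and ranged from -0.88 to -0.77 without each library in turn; it was -0.76 with the GC offset, with or without the replicate block. Counts of trend genes were less stable. Without each library in turn they ranged from 3 to 573 rising and from 1 to 642 falling (2 to 45 and 1 to 39 for changes over 1 log2), with the lowest counts without a library of shScr or shRBM10#2, while ordered genes ranged from 882 to 1489 rising and from 841 to 1285 falling, since fewer libraries had to be in order. Departures ranged from 1257 to 2622, calls of the step to shRBM10#1 from 985 to 2626 and of the step to shRBM10#2 from 918 to 3736. At an adjusted p under 0.01 there were 3 rising and 2 falling trend genes, all over 1 log2, 1138 departures, and 898 and 1760 calls of the steps. Among these trend genes were RBM10, which set the scores, and ALB and COMMD3-BMI1, which passed the filter through shRBM10#2 alone. DESeq2 called 633 rising and 807 falling genes (34 falling over 1 log2), the linear contrast of a fit with a coefficient per condition, which sets aside departures from the line, 1708 and 1977 (102 and 83 over 1 log2), a score from the measured fall of RBM10 419 and 477, and the length offset 374 falling. The GC offset, chosen after seeing the data, called 122 rising genes and 1977 genes at the step to shRBM10#2. With limma on log2(TPM + 1) there were 9 rising and 28 falling trend genes (4 and 9 over 1 log2), 959 departures, and 960 and 1264 calls of the steps; 295 genes were ordered rising and 654 falling by TPM, a rising share of 31.1% beside 53.4%, and 24.3% of trend calls rose beside 47.1%. With a gap of at least 0.1 log2, 133 and 126 genes were ordered. The cause of these differences was not tested.

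The replicate numbers share only a number: same-numbered libraries did not deviate together (correlations of -0.20, -0.15 and -0.01 over 9462 genes). With the replicate block, 3 rising and 2 falling genes were called, all over 1 log2. With the block and the length offset there were 10 and 16 (3 and 4 over 1 log2). With the block and the GC offset there were 3 and 2, all over 1 log2, 1562 departures and 1617 calls of the step to shRBM10#2. Of the values of 71 named genes under 19 settings, 857 kept their side of the threshold and direction, 482 lost the call, 5 gained it and 0 reversed. Depth limited the genes with few counts, such as ALB and COL17A1.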

Other observations

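Several lists held many genes in which shRBM10#1 departed from the line. The genes named here were chosen after their values had been seen, as those with the smallest p for the departure of shRBM10#1 from the midpoint of the other conditions. Of 32 amino acid and ER stress genes, 14 lay below the line by edgeR's test, beside 7.48% of all genes. ASNS, asparagine synthetase, was at 56.5 and 41.2 CPM with shScr, 15.6 and 12.6 with shRBM10#1 and 27.5 and 27.5 with shRBM10#2 (departure -1.38, edgeR adjusted p = 2.96e-05), and PSAT1, an enzyme of serine synthesis, at 305 and 243 CPM with shScr, 140.2 and 112 with shRBM10#1 and 195 and 191 with shRBM10#2 (departure -0.87, edgeR adjusted p = 0.000138). In both genes the shRBM10#1 libraries were lowest and those of shRBM10#2 lay between. Of 24 p53 targets 9 lay below the line, among them SESN2, a stress-induced inhibitor of mTOR signaling that is also in the stress list, at 29.2 and 23.9 CPM with shScr, 12.5 and 9.61 with shRBM10#1 and 21.2 and 18.9 with shRBM10#2 (departure -1.07, edgeR adjusted p = 0.000108).

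In the EGFR list, HBEGF, a ligand of the receptor, was at 21.5 and 17.7 CPM with shScr, 4.16 and 3.56 with shRBM10#1 and 7.46 and 9.16 with shRBM10#2 (departure -1.73, edgeR adjusted p = 1.54e-05), while LRIG1, a membrane protein that promotes turnover of the receptor, was at 2.28 and 3.04 CPM with shScr, 12.8 and 18.6 with shRBM10#1 and 8.4 and 7.23 with shRBM10#2 (departure 1.79, edgeR adjusted p = 2.41e-05). Both shRNAs shifted each gene the same way against shScr, and shRBM10#1, which left more RBM10, shifted it further. The lung lineage and secretory genes had a median step of 0.42 log2 to shRBM10#1 and of -0.30 from there to shRBM10#2 (14 genes tested). SPDEF, a transcription factor of secretory cells, was at 7.85 and 8.26 CPM with shScr, 27.5 and 38.7 with shRBM10#1 and 18.1 and 16.2 with shRBM10#2 (departure 1.49, edgeR adjusted p = 1.47e-05), highest with shRBM10#1 and above shScr in all 4 knockdown libraries. Among Bcl-2 family genes BCL2L11, which encodes the pro-apoptotic protein Bim, was at 25 and 24.8 CPM with shScr, 37.1 and 39.98 with shRBM10#1 and 37 and 35.6 with shRBM10#2 (departure 0.36, edgeR adjusted p = 0.0022), above shScr in all 4 knockdown libraries and about level between the shRNAs.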
